A study of Mus musculus with 5 samples.

Results

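The 10 genes described here mark the non-hematopoietic stroma and the vessels of a tumor, out of 750 endogenous probes on a NanoString panel of cancer immunity genes. They were taken by name from the panel, 7 for fibroblasts and extracellular matrix (Col1a1, Col3a1, Col4a1, Fn1, Pdgfrb, Thy1 and Itga1) and 3 for endothelium (Pecam1, Cdh5 and Vwf). RNA came from live CD45- cells sorted from B16.OVA tumors, which grow from a single mouse melanoma line that expresses ovalbumin. The 3 WT hosts were FoxP3YFP-Cre and the 2 KO hosts were Prdm1fl/flFoxP3YFP-Cre, all on the C57BL/6 strain and 5 to 10 weeks old. Both groups thus carried the Cre, which the Foxp3 locus drives in regulatory T (Treg) cells, so that the floxed Prdm1 (encoding Blimp1) is deleted in a cell that the CD45- sort leaves out. Hosts in both groups received NP-OVA in CFA on day 0 and in IFA on day 7, and tumors were taken at no more than 1.5 cm3. The question was how loss of Blimp1 in Treg cells relates to transcripts of the CD45- compartment, here its stromal and endothelial genes. The labels name samples only, so that p-values measure the spread between these samples.

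Fibroblasts deposit fibrillar collagens and fibronectin, which form the interstitial matrix of a tumor, while pericytes wrap the vessels and share a type IV collagen basement membrane with the endothelium. Endothelial cells are joined to each other by VE-cadherin and CD31 and store von Willebrand factor. A CD45- sort removes hematopoietic cells and keeps tumor cells together with any fibroblasts, pericytes and endothelial cells. Several of these genes are not restricted to stroma: melanoma cells and macrophages can make fibronectin, and T cells carry Thy1.

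Upstream sequences are shown for a pair of collagens whose counts varied to very different degrees between samples, Col3a1 (widely) and Col4a1 (near the panel median). They are the 250 bases before the annotated gene start, from RefSeq (GRCm38.p6), which held such a sequence for 3 of the 10 genes. Each is given 5′ to 3′ on the gene's strand, with every CG dinucleotide in capitals. CG reads the same on both strands. The Col3a1 sequence lies on the plus strand at chr1:45311288-45311537, and the Col4a1 sequence on the minus strand at chr8:11312827-11313076.
Col3a1: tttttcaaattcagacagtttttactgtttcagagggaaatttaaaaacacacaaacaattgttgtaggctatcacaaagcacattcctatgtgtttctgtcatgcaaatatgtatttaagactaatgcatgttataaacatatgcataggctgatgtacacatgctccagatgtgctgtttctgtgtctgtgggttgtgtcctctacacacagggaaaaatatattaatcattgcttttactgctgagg
Col4a1: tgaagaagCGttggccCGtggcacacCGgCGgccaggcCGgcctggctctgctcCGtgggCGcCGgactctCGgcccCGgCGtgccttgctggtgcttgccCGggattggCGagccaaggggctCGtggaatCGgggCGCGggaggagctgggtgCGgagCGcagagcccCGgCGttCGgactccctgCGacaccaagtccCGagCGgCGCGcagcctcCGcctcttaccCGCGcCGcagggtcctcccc
The Col3a1 sequence held 0 CG and was 35.2% G and C, and 7.87% of 32817 promoter sequences of the same length also held 0. The Col4a1 sequence held 31 CG and was 74.4% G and C, and 5.20% of the sequences held as many or more. The sequence of the third matched gene, Itga1, held 10 CG against a median of 6. The pair was chosen after the counts were seen, and the letters are a description of the sequence only.

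Endogenous probes summed to between 369515 and 461822 counts per sample. Background was taken as the mean plus 2 SD of the 8 negative controls of a sample and lay between 13.1 and 17.7 counts. Raw counts were divided by a factor from the geometric mean of 20 housekeeping probes (0.935 to 1.14), which gives the normalized count. Testing was limited to the 401 of 750 probes above background in 2 or more samples. These included all 7 matrix and fibroblast genes and 1 of the 3 endothelial genes. Of 17 listed leukocyte genes the panel held 16. Of these, 10 did not exceed background in any sample, among them Ptprc, which encodes CD45 and had at most 4 counts. Leukocyte genes outside this list, such as Cd53 and Itgb2, were among the tested probes. Of 9 listed melanocyte genes the panel held 2, S100b and Mcam, both of which could be tested. These 2 genes cannot by themselves tell tumor cells from stroma in a CD45- sort. Their log2 fold changes were −0.13 (SE 0.10) and 0.58 (SE 0.11). Mcam gave normalized counts of 1727, 1916 and 1668 across WT, with 2684 and 2607 across KO. Both KO samples were thus above all WT samples, an order that 8.98% of tested genes showed. The adjusted p of Mcam was 0.487 in edgeR with Benjamini-Hochberg adjustment and 0.00574 in DESeq2.

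The endothelial genes were barely detected. Pecam1, which encodes the junction protein CD31, gave 5, 3 and 3 raw counts across WT 1, 2 and 3, with 2 and 3 across KO 1 and 2. Cdh5, which encodes VE-cadherin, gave 7, 6 and 7 counts across WT, with 5 and 8 across KO. Both genes were therefore below background in 5 of 5 samples, and neither a fold change nor an order of samples is given for them. In the authors' normalized signal, both stood at its floor of 15 in all 5 samples. At this depth, the endothelial label is thus not borne out by its junction genes.

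Vwf, which encodes the von Willebrand factor of endothelial storage granules and platelets, was the only endothelial gene that could be tested. Its raw counts were 12, 19 and 33 across WT 1, 2 and 3, with 5 and 27 across KO 1 and 2, of which WT 1 and KO 1 were not above background. The normalized counts were 12.4, 20.3 and 35.3 across WT, with 4.38 and 26.6 across KO. The groups overlapped, because KO 2 lay between WT 2 and WT 3, and WT 1 and KO 1 have no measured order. KO 2 as counted was at least 2.05-fold higher than KO 1 set at its background. The log2 fold change of KO against WT was −0.57 (SE 0.82, 95% interval −2.65 to 1.51), with an adjusted p of 0.884 in edgeR's quasi-likelihood test after Benjamini-Hochberg adjustment. It turned to 0.24 without KO 1 and was −2.34 without KO 2.

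The other endothelial genes of the panel divided in the same manner. Of 11, 7 were at or below background in every sample, with at most 11 raw counts. They were Kdr and Tek, the receptors of VEGF and of the angiopoietins, Tie1, Cd34, the adhesion receptor Sele, the lymphatic gene Lyve1, and the ligand Angpt1. Vcam1 exceeded background in 1 sample. The 3 that could be tested were Eng, Angpt2 and Icam2. Eng, a TGF-β co-receptor that is also carried by other cells, gave normalized counts of 1012, 1209 and 968 across WT, with 907 and 954 across KO. Angpt2, the angiopoietin that destabilizes vessels, gave 401, 419 and 417 across WT, with 424 and 276 across KO. Icam2, an adhesion molecule of endothelium and leukocytes, gave 274, 369 and 355 across WT, with 298 and 203 across KO. KO fell wholly below WT for Eng, by a narrow margin (954 in KO 2 against 968 in WT 3). This order was shown by 14.7% of all tested genes. The groups overlapped for Angpt2 and Icam2. The log2 fold changes were −0.19 for Eng, −0.23 for Angpt2 and −0.41 for Icam2, and 0 of the 3 passed an adjusted p of 0.05 in edgeR.

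**Figure D1:**
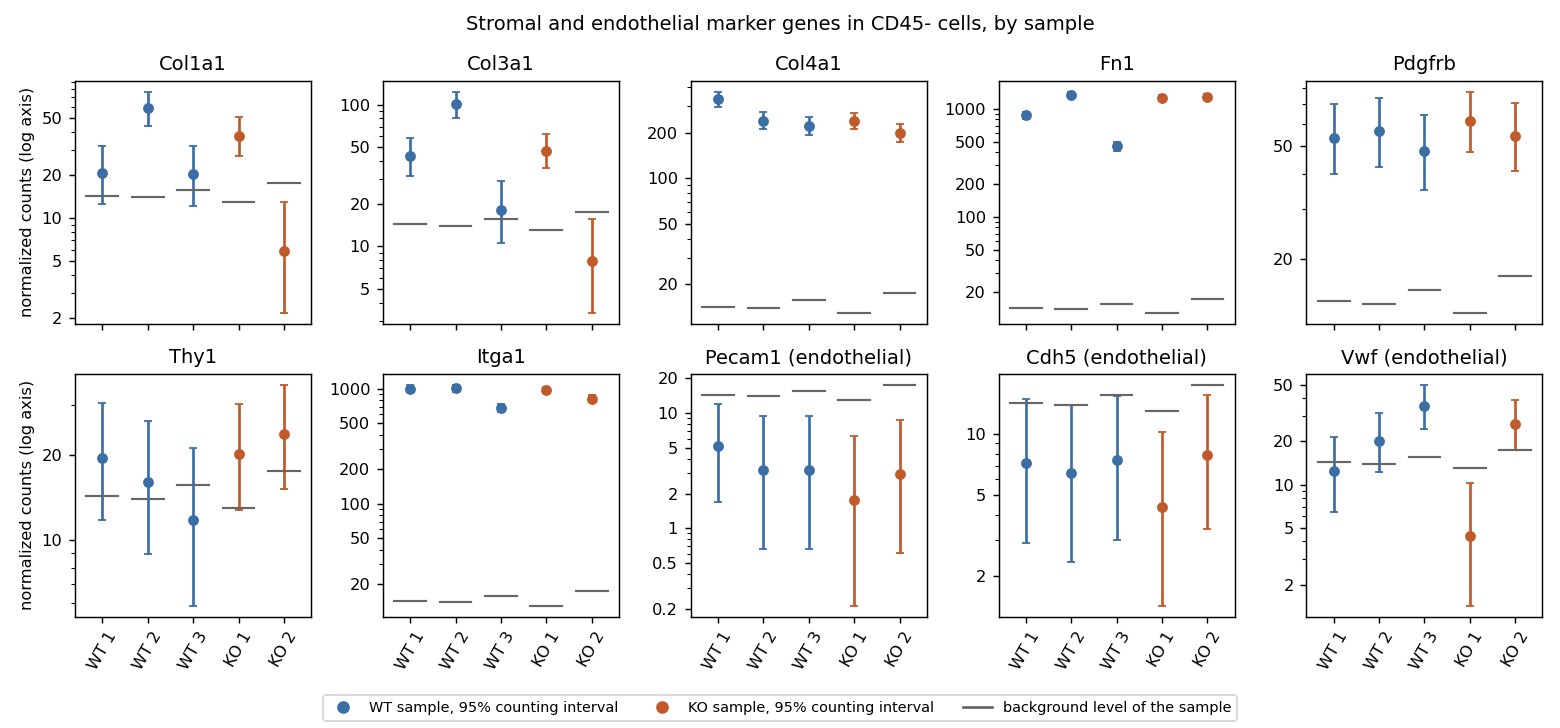
Normalized counts (log axis, with a scale of its own in each panel) of the 10 genes in WT (blue) and KO (orange) samples, with 95% counting intervals and each sample's background as a grey line. Pecam1 and Cdh5 lie below the line in all 5 samples, and KO 2 lies below it for Col1a1 and Col3a1 while KO 1 lies above it.

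The fibrillar collagens varied within each genotype. Col3a1, the α chain of type III collagen, had 42, 94 and 17 raw counts across WT 1, 2 and 3, with 54 and 8 across KO 1 and 2. Its normalized counts were 43.2, 100.3 and 18.2 across WT, with 47.3 and 7.89 across KO, where KO 2 was not above background. WT 2 was the highest sample and KO 2 the lowest, and KO 1 lay between WT 1 and WT 2, so that the genotypes overlapped. With KO 2 set at its background, KO 1 as counted was at least 2.70-fold higher, and the WT samples, all above background, differed by up to 5.51-fold. The 95% counting intervals were 76.0 to 115 raw counts in WT 2 and 9.90 to 27.2 in WT 3. WT averaged 53.9 ± 42.1 (SD, n = 3), and KO averaged 27.6 ± 27.8 (SD, n = 2). The log2 fold change was −0.95 (SE 0.97, 95% interval −3.43 to 1.53), with an adjusted p of 0.841 in edgeR after Benjamini-Hochberg adjustment.

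Col1a1, a chain of type I collagen, followed the same order of samples, from WT 2 through KO 1, WT 1 and WT 3 to KO 2. Its raw counts were 20, 55 and 19 across WT, with 43 and 6 across KO, or 20.6, 58.7 and 20.3 and 37.6 and 5.92 after normalization. KO 1 exceeded both WT 1 and WT 3, whereas KO 2 was not above background. KO 1 as counted was at least 2.15-fold higher than KO 2 set at its background. The log2 fold change was −0.58 (SE 0.87, 95% interval −2.80 to 1.63, adjusted p = 0.884, edgeR with Benjamini-Hochberg adjustment). Its sign rested on single samples, as it was 0.11 without WT 2 and 0.18 without KO 2, against −2.46 without KO 1. For Col3a1 the corresponding values were −0.14, −0.19 and −2.75. For the summed normalized counts of both genes, WT 1, 2 and 3 had 63.8, 159 and 38.5, and KO 1 and 2 had 84.9 and 13.8.

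The non-fibrillar collagen gene of the set was well measured and varied less than the fibrillar ones. Col4a1, a chain of the type IV collagen of basement membranes, had normalized counts of 334, 241 and 223 across WT, with 239 and 200.2 across KO. WT 1 was the highest sample, and KO 1 lay between WT 2 and WT 3. WT averaged 266 ± 59.5 (SD, n = 3), and KO averaged 219.6 ± 27.3 (SD, n = 2), which gave a log2 fold change of −0.28 (SE 0.23, 95% interval −0.87 to 0.32). The adjusted p was 0.824 in edgeR with Benjamini-Hochberg adjustment, and the log2 fold change was −0.077 without WT 1.

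Fn1, which encodes fibronectin, had normalized counts of 871, 1358 and 454 across WT, with 1274 and 1294 across KO. The 2 KO samples were nearly equal, at a ratio of 1.02, whereas the WT samples spanned 2.99-fold and enclosed them, with WT 2 above both and WT 1 and WT 3 below. WT averaged 894 ± 452 (SD, n = 3), and KO averaged 1284 ± 14.2 (SD, n = 2). The estimate for KO against WT was a log2 fold change of 0.52 (SE 0.44, 95% interval −0.61 to 1.66, adjusted p = 0.825, edgeR with Benjamini-Hochberg adjustment). Without WT 2 it was 0.95, with an unadjusted p of 0.0344 and an adjusted p of 0.825 in edgeR with Benjamini-Hochberg adjustment, and without WT 3 it was 0.20. Among the listed leukocyte genes, Cd68 varied beside Fn1. It encodes a lysosomal protein abundant in macrophages and stood at 141, 210.1 and 128 across WT, with 243 and 246 across KO. The leukocyte gene Lyz2, outside that list, is described below. The summed normalized counts of the 16 listed leukocyte genes on the panel were 239.9, 326 and 220.4 in WT 1, 2 and 3, and 343 in each KO sample. Without Cd68 the other 15 summed to 98.9, 116 and 92.0 across WT, with 99.8 and 97.7 across KO, and Ptprc was below background in every sample. The part of macrophage transcripts in the Fn1 values was not tested.

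Itga1, the integrin α subunit that pairs with β1 to bind collagens, had normalized counts of 1005, 1012 and 684 across WT, with 975 and 820 across KO. Both KO samples fell within the WT range, with WT 3 the lowest. WT averaged 900.3 ± 188 (SD, n = 3), and KO averaged 897 ± 109.7 (SD, n = 2). The log2 fold change was −0.0047 (SE 0.22, 95% interval −0.56 to 0.55, adjusted p = 0.994, edgeR with Benjamini-Hochberg adjustment), and among other scalings it was 0.044 with TMM, 0.15 with positive controls and −0.0047 with the total count. Its interval therefore still covered changes of about 0.5 on the log2 scale in either direction.

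Pdgfrb encodes the PDGF receptor β of pericytes and fibroblasts and was the steadiest of the 8 tested genes. Normalized counts were 53.5, 56.5 and 48.1 across WT, with 61.3 and 54.3 across KO, above background in every sample. KO 1 was the highest sample, and KO 2 lay between WT 1 and WT 2. KO against WT gave a log2 fold change of 0.13 (SE 0.20, 95% interval −0.38 to 0.64, adjusted p = 0.884, edgeR with Benjamini-Hochberg adjustment).

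Thy1, the surface glycoprotein CD90 of fibroblasts and T cells, lay close to background. Raw counts were 19, 15 and 11 across WT, with 23 and 24 across KO, and WT 3 was not above background. Normalized counts were 19.6, 16.0 and 11.8 across WT, with 20.1 and 23.7 across KO, so that both KO samples were above all WT samples by a narrow margin. It was the 1 of 8 tested genes of the set with this order, which 8.98% of all tested genes showed. For KO against WT the log2 fold change was 0.47 (SE 0.30, 95% interval −0.29 to 1.23, adjusted p = 0.785, edgeR with Benjamini-Hochberg adjustment). The T cell receptor gene Cd3d, with Cd68 (0.61, SE 0.25) one of 2 listed leukocyte genes tested, had a log2 fold change of −0.37 (SE 0.41). Outside that list, the log2 fold change was 0.69 (SE 0.39) for Ctla4, 0.10 (SE 0.28) for Cd28, 0.12 (SE 0.23) for Lag3 and −0.48 (SE 0.38) for Tigit. The part of T cell transcripts in the Thy1 values was not tested.

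**Figure D2:**
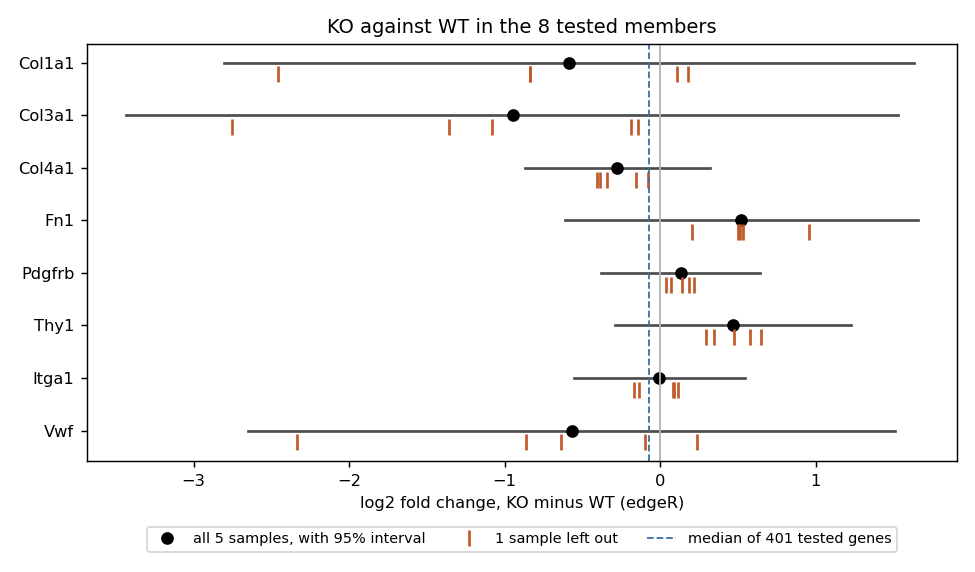
Log2 fold change of KO against WT (x axis) for each of the 8 tested genes, with the estimate and 95% interval of edgeR from all 5 samples (black) and the estimates with 1 sample left out (orange ticks). All 8 intervals include 0, and the ticks of Col1a1, Itga1 and Vwf fall on both sides of it, while the dashed line marks the median of 401 genes at −0.069.

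Of the 8 tested genes, 3 (Fn1, Pdgfrb and Thy1) were higher and 5 were lower in KO by the sign of the estimate. Over the panel, 60.6% of tested genes were lower. The median log2 fold change was −0.14 over the 8 genes and −0.0047 over the 7 matrix and fibroblast genes, against −0.069 over all tested genes. By edgeR with Benjamini-Hochberg adjustment 0 of the 8 passed, as did 0% of all tested genes, and at an unadjusted p under 0.05 the numbers were 0 of 8 and 6.23%. DESeq2 called 2 genes on the panel (Relb and Mcam) and limma called 0, so that neither called a gene of the set. No tested gene of the set had both KO samples below all WT samples, an order shown by 14.7% of tested genes. Intervals were wide for Col1a1, Col3a1 and Vwf, whose SEs were 0.82 to 0.97 against a median of 0.25 over the panel. As KO over WT, the 95% intervals ran from 0.14 to 3.10 for Col1a1, 0.093 to 2.89 for Col3a1 and 0.16 to 2.85 for Vwf. A change within these ranges, in either direction, could not be told from none with these samples. In sorted bulk RNA, fewer cells of a type and less RNA per cell cannot be told apart.

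The spread over all 5 samples, WT and KO together, separated the set into groups. The highest sample exceeded the lowest by 12.7-fold for Col3a1, 9.91-fold for Col1a1 and 8.07-fold for Vwf, against a median of 1.62 over the 401 tested genes. Within WT alone these ratios were 5.51, 2.89 and 2.86, with WT 1 not above background for Vwf. The lowest of the 5 samples was not above background for these 3 genes and for Thy1. With that sample set at its background and the highest taken as counted, the ratio was at least 5.74-fold for Col3a1, 3.36-fold for Col1a1, 2.72-fold for Vwf and 1.51-fold for Thy1. Counting error is not in these bounds: for Thy1 the interval of KO 2 began at 15.2, against a background of 15.7 in WT 3. Low counts spread more. Among the 139 genes with a mean normalized count under 100, the median ratio without such a bound was 2.07 and the 95th percentile 5.03. Only 2 tested genes had a larger measured ratio than Col3a1, Nfatc2 and the MHC class II invariant chain gene Cd74. The genes above background in every sample had ratios of 2.99 for Fn1, 1.67 for Col4a1, 1.48 for Itga1 and 1.27 for Pdgfrb. The pericyte receptor and the basement membrane collagen thus differed less between samples in which the fibrillar collagens differed widely. The ratio of Col4a1 was near the panel median of 1.62.

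**Figure D3:**
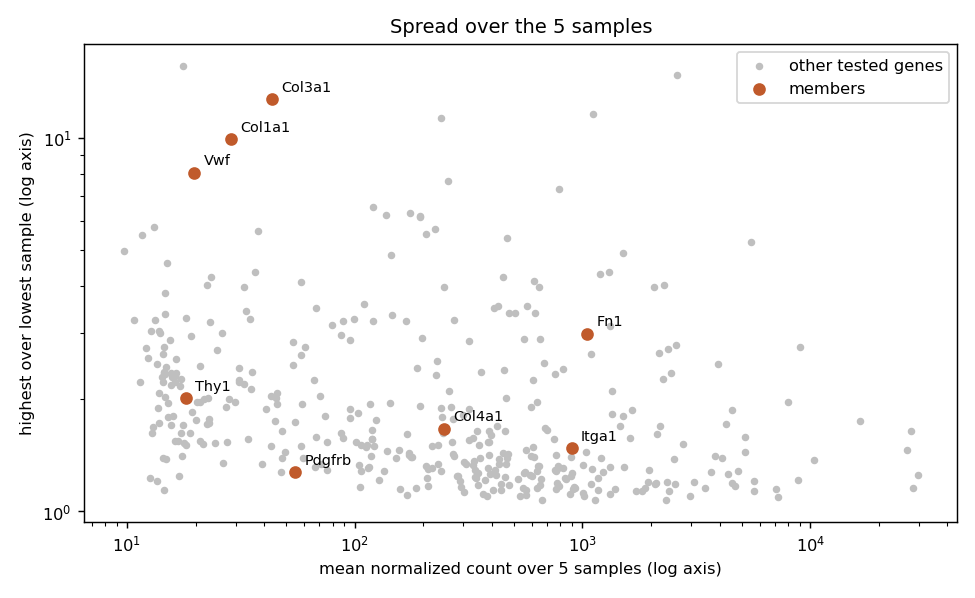
Highest over lowest normalized count among the 5 samples (y axis, log) against the mean normalized count (x axis, log) for the 401 tested genes, with the 8 tested genes of the set in orange. Col3a1 (12.7), Col1a1 (9.91) and Vwf (8.07) lie above most genes of like mean, and Pdgfrb (1.27) lies near the lower edge. The first 3 ratios and that of Thy1 use a lowest sample that was not above background.

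Among 9 other fibroblast, pericyte and matrix genes of the panel, 3 (Fap, Cxcl12 and Nt5e) did not exceed background in any sample, with at most 9 counts. Fap marks activated fibroblasts and Cxcl12 is a chemokine of stromal cells, and their counts stood with those of Pecam1 and Cdh5. The other 6 were tested, of which 2 had higher and 4 lower estimates in KO. Their log2 fold changes had a median of −0.12, and 0 passed an adjusted p of 0.05 in edgeR. Eng belongs to both lists. Spp1, the secreted matrix protein osteopontin, gave normalized counts of 115, 129 and 156 across WT, with 106 and 43.4 across KO. Both KO samples were below all WT samples, an order shown by 14.7% of tested genes. The log2 fold change of Spp1 was −0.83 (SE 0.42), with an adjusted p of 0.744 in edgeR with Benjamini-Hochberg adjustment. Thbs1, the matrix glycoprotein thrombospondin, gave 37.1, 57.6 and 26.7 across WT, with 28.9 and 16.8 across KO. It had its highest value in WT 2 and its lowest in KO 2, as Col1a1 and Col3a1 did, with a log2 fold change of −0.82 (SE 0.44). In KO 2, Thbs1 was not above background either, at 17 raw counts against 17.7. Vim, the intermediate filament of mesenchymal and melanoma cells, had a log2 fold change of 0.22 (SE 0.16).

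The genes with the most similar sample profiles were then listed, by the root-mean-square difference of centered log2 values over the 5 samples. For the sum of Col1a1 and Col3a1 they were Csf1 (0.65), Thbs1 (0.66) and the chemokine gene Ccl2 (0.66), against a median of 1.17 over other tested genes. In KO 2, Thbs1 (16.8) and Ccl2 (10.9) were below the normalized background of 17.5, as were Col1a1 and Col3a1. For Fn1 the nearest genes were Lyz2 (0.13), which encodes the lysozyme of macrophages and neutrophils, Lbp (0.20) and Cd68 (0.31), against a median of 0.66. Lyz2 itself was low, at 28.8, 46.9 and 11.8 across WT, with 36.8 and 38.5 across KO, and like Fn1 was highest in WT 2 and lowest in WT 3. In WT 3, Lyz2 and Lbp (12.8) were below the normalized background of 15.7, so that how low they were was not measured. Other myeloid genes differed in direction. The log2 fold change was −0.48 (SE 0.36) for Fcgr1, −0.57 (SE 0.52) for Fcgr4 and −0.09 (SE 0.23) for Mertk. It was 0.36 (SE 0.55) for Lyz2 and 0.19 (SE 0.66) for Ctss. Csf1r exceeded background in 1 sample, with 15.4, 13.9 and 13.9 across WT and 9.63 and 9.86 across KO. For Vwf the nearest genes were Fos (0.42), Cd244 (0.44) and Egr1 (0.50), against a median of 0.95. Fos and Egr1, immediate early genes that cells induce rapidly on stimulation, were highest in WT 3 and lowest in KO 1, with Fos at 3764, 3208 and 9813 across WT, with 1862 and 8790 across KO. The nearest genes of Col4a1 were Lyn, Map3k5 and Mme, and those of Itga1 were Ep300, Igf1r and Itga6, all within 0.094. The sum of the 7 matrix and fibroblast genes was 91.9% to 96.2% Fn1, Itga1 and Col4a1, and its nearest genes were Ly9 (0.12), Dock9 (0.15) and Igf1r (0.16). The sum of the 3 endothelial genes was nearest to Cd244 (0.20), Tigit (0.35) and Tpsab1 (0.36), of which none reached 30 normalized counts in any sample. Within that sum, Pecam1 and Cdh5 were below background in every sample, and Vwf was in WT 1 and KO 1. It is therefore not a measured endothelial profile. With 5 points that share their scaling, such likeness is a description, without a test.

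**Figure D4:**
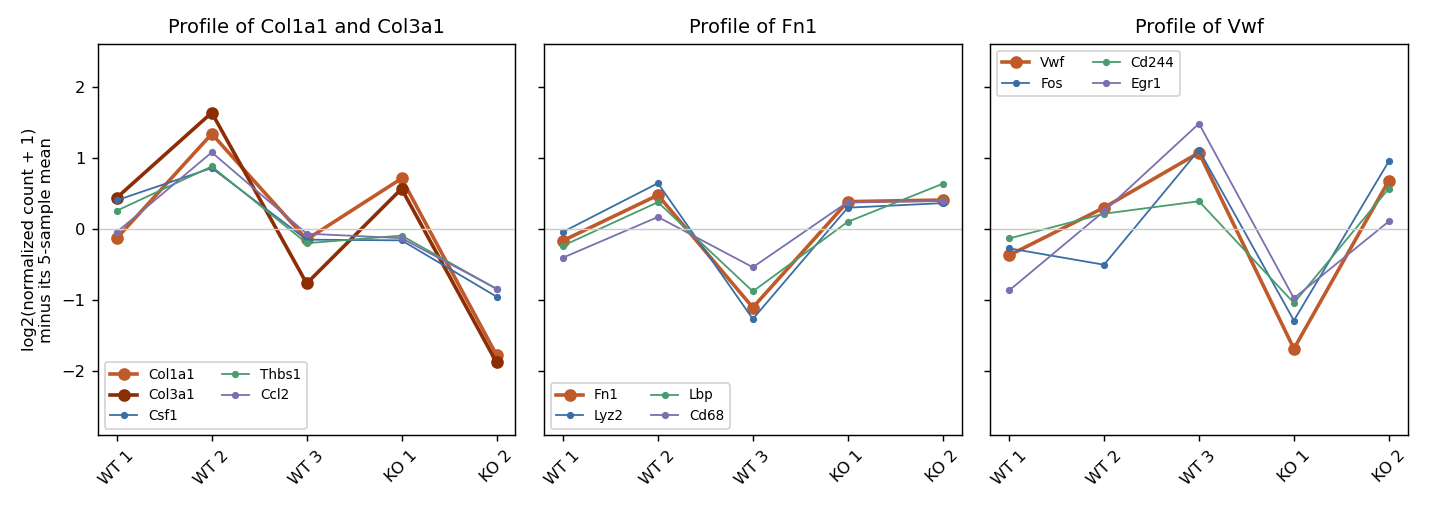
Centered log2(normalized count + 1) (y axis) in the 5 samples (x axis) for Col1a1 and Col3a1, for Fn1 and for Vwf (thick lines), each with its 3 most similar genes (thin lines). Lines only join the samples and imply no order among them, and Col1a1 and Col3a1 peak in WT 2 and are lowest in KO 2, and Fn1 is lowest in WT 3. Vwf is highest in WT 3 and was not above background in WT 1 and KO 1.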

How the data were processed

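CD45- cells were sorted from tumors of 3 WT and 2 KO hosts, and 100 ng of RNA per sample was hybridized to the nCounter PanCancer Immune panel. The authors deposited raw counts of 784 probes (750 endogenous, 20 housekeeping, 8 negative and 6 positive controls). The authors also deposited a normalized signal made with nSolver, in which each sample's raw count was multiplied by a single factor (0.842 to 1.04) and values under 15 were set to 15. Raw counts hold no value below 1, which 4 probes have in all 5 samples.

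Counts were divided by the relative housekeeping geometric mean. KO was compared with WT on the raw counts of 401 probes by edgeR 4.0.16 (estimateDisp, glmQLFit, glmQLFTest, genotype only, housekeeping offsets, two-sided) in R 4.3.3, with Benjamini-Hochberg adjustment over all 401 and a threshold of 0.05. Counting intervals are exact Poisson 95% intervals and cover counting error only. Probe accessions of all 10 genes matched their RefSeq symbols. The files name no genome build, so that coordinates are those of the RefSeq promoter table (GRCm38.p6).

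Alternatives were TMM, total count and positive control scaling, no filter or a mean count of at least 50, background subtraction, the deposited signal, limma 3.58.1, DESeq2 1.42.0, the methods' t-test on log2 values, a replicate block, and each sample left out. Log2 values used a pseudocount of 1. The genes and lists were chosen with earlier results of these data known. Named genes were all 10 members, up to 3 genes per context list by smallest unadjusted p, and for each profile the 3 most similar tested genes. Genes named as not above background, Nfatc2, Cd74, Relb, Vcam1, Cd53, Itgb2, Ctla4, Cd28, Lag3, Itgb4 and Cd44 were named after their values were seen. The same holds for Fcgr1, Fcgr4, Mertk, Ctss and Csf1r.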

Additional observations from a re-analysis of the deposited data

How the results depend on the processing

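Of 124 alternative estimates for the 8 tested genes, 111 kept the sign of the main estimate and 13 did not, and 0 passed an adjusted p of 0.05. Fn1 without WT 2 was the only one under an unadjusted p of 0.05 (0.0344). Itga1, at −0.0047, became 0.044 with TMM, 0.15 with positive control scaling, 0.045 with DESeq2, 0.013 both with the methods' t-test and with limma, 0.037 with the deposited signal and 0.012 after background subtraction, and stayed at −0.0047 with total count scaling. With each sample left out, the ranges were −2.46 to 0.18 for Col1a1, −2.75 to −0.14 for Col3a1, −0.41 to −0.077 for Col4a1, 0.20 to 0.95 for Fn1, 0.041 to 0.22 for Pdgfrb, 0.30 to 0.65 for Thy1, −0.17 to 0.11 for Itga1, −2.34 to 0.24 for Vwf, the only endothelial gene tested, and −0.17 to 0.18 for the median of the matrix and fibroblast genes. Treatment of values near background moved the sizes: with the deposited signal and its floor, Col1a1, Col3a1 and Vwf were −0.25, −0.64 and −0.11, and after background subtraction −1.92, −2.38 and −1.62. Positive control scaling shifted the median of all tested genes by 0.14. Over the panel, DESeq2 called 2 genes against 0, and genes at an unadjusted p under 0.05 numbered 25, against 39 without a filter, 16 with the replicate block, and 10 (without KO 2) to 50 (without WT 1) with a sample left out. The cause was not tested. A lone KO sample was assumed to vary like the WT samples. Same-numbered samples correlated at 0.29 and 0.00025 in their deviations, so that the numbers were not shown to pair samples, and the replicate block changed no adjusted call in the set. A mean count of at least 50 left no endothelial gene to test.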

Other observations

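Receptors that cells use to hold on to matrix proteins formed another list, of 11 genes. The panel held 7 of these, and 6 could be tested: 5 had a higher and 1 a lower estimate in KO. One of the 5 was Cd44, at 0.0041, and 60.6% of all tested genes were lower. The log2 fold changes of the 6 had a median of 0.079, and 0 passed an adjusted p of 0.05 in edgeR. The list left out Itga1, at −0.0047, and the integrin gene Itgb4, which was lower in KO at −0.53 (SE 0.28). Itgb3, the β3 integrin subunit of vitronectin and fibrinogen receptors, gave normalized counts of 109, 88.5 and 86.7 across WT, with 130.4 and 168 across KO. Both KO samples were above all WT samples, an order shown by 8.98% of tested genes. The log2 fold change of Itgb3 was 0.65 (SE 0.21), with an adjusted p of 0.71 in edgeR with Benjamini-Hochberg adjustment. Itgb1, the β1 partner of the Itga1 product, had a log2 fold change of 0.17 (SE 0.097) and Itga4, a fibronectin receptor subunit, of 0.11 (SE 0.15). Itgb3 is also a platelet gene, and the other tested platelet gene, Ppbp, had a log2 fold change of 0.062 (SE 0.30).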
